A study of Mus musculus with 6 samples.

Results

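The eGFP-positive luminal tumour cells were the keratin 8 and keratin 18 expressing epithelial cells that also carried the eGFP reporter in mouse mammary tumours taken at 4 stages of growth, regression and regrowth. The members were chosen by their raw counts of unique molecular identifiers (UMIs, each 1 captured transcript). A cell entered with a minimum of 500 UMIs, a minimum of 200 genes and mitochondrial genes giving no more than 20% of its UMIs. It was a member when it also held at least 1 eGFP UMI, at least 3 UMIs of Krt8 and Krt18 together, at most 2 UMIs of Krt5, Krt14 and Krt17 together, and no Ptprc UMI. Krt8 and Krt18 are the keratins of luminal cells, Krt5, Krt14 and Krt17 those of basal cells, and Ptprc encodes CD45 of blood cells. The rule found 4050 of the 18293 cells that passed the first 3 limits, among 19668 deposited. Because the cells were selected on eGFP, these keratins and Ptprc, the levels of these genes are given as a description and nothing is drawn from them.

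The mammary epithelium is built of an inner luminal layer, whose progenitors can make milk proteins, and an outer basal layer that contracts. MMTV-Wnt1 mice express the secreted Wnt1 ligand in mammary epithelium from a viral promoter, and their tumours hold luminal and basal cells side by side. In some of these tumours Wnt1 is known to come from luminal cells, and basal cells depend on it. FGF receptors signal through the MAPK cascade, and a receptor fused to a dimerizing domain can be switched on by a drug that joins its copies. Cells that stop dividing commonly carry high levels of CDK inhibitors such as p21, a main target of p53.

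Single-cell RNA was sequenced from 1 library per stage, all from the strain labelled FVB (FVB.rGH-Luc-GFP) and all from mammary gland. The Primary library came from mice of 8 to 10 weeks with the genotype MMTV-Wnt1/iFGRR2, the Dormant library from mice of 10 to 12 weeks (MMTV-Wnt1/iFGRR1), the LT_DT library from mice of 32 to 34 weeks (MMTV-Wnt1/iFGRR4) and the Recurrent library from mice of 20 to 22 weeks (MMTV-Wnt1/iFGRR3). The names are spelled as labelled, and whether the closing numbers of the genotypes carry meaning is not known. Tumours were transplants. The B/B homodimerizer was injected at 3-day intervals, up to a tumour size of 4 to 5 mm. At 7 to 9 mm NVP-BGJ398, which blocks FGF receptors, was fed for 14 days, followed by 14 days without it. Residual tissue was taken then, or mice were left until tumours returned, and the labels do not state separately what the Primary mice received. How many mice gave each library, and which cells were made to carry eGFP, is not stated either. Cells had been frozen, thawed and sorted live. With 1 library per stage no difference between stages could be tested, mouse and stage cannot be told apart, and every 95% interval below covers counting error only.

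The member cells were unevenly spread over the stages. They made up 36.28% of kept cells in Primary (1570 of 4328, exact interval 34.84 to 37.73%), 2.045% in Dormant (67 of 3276, 1.588 to 2.590%) and 51.50% in Recurrent (2413 of 4685, 50.06 to 52.95%). In LT_DT 0 of 6004 cells met the rule, which allows a share of up to 0.04997% at 3 counts. With cells holding 2 or more UMIs of other lineages left out, the shares were 14.51% in Primary, 0.2137% in Dormant and 13.85% in Recurrent. Recurrent was then no longer above Primary. This cut counts raw UMIs and so removes deeper cells more readily. Its markers include S100a8, which Recurrent members held at a higher level than Ptprc-positive cells, as given below. B and plasma cell UMIs alone were found in 63 of the 67 Dormant members. The order under this cut therefore cannot be read as a correction for other cells. With no member, LT_DT enters no comparison of gene levels. Any eGFP UMI was found in 2362 Primary, 323 Dormant, 12 LT_DT and 3020 Recurrent cells. A live-cell sort and a target of 10000 cells per library stand behind these shares, so they say nothing of the number of cells in the tissue.

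The stages also differed in the ratio of luminal to basal cells among the eGFP-positive epithelium. Basal cells were counted as eGFP-positive cells without Ptprc and with at least 3 UMIs of the basal keratins, whatever their Krt8 and Krt18. There were 276 of them in Primary, 105 in Dormant, 1 in LT_DT and 99 in Recurrent. Luminal cells thus formed 85.05% (83.34 to 86.65%) of eGFP-positive epithelial cells in Primary, 38.95% (31.62 to 46.67%) in Dormant and 96.06% (95.22 to 96.79%) in Recurrent. Among the Recurrent basal cells 79 of 99 (79.80%) also had at least 3 Krt8 and Krt18 UMIs, against 35 of 105 (33.33%) in Dormant and 81 of 276 (29.35%) in Primary. The interval of the Dormant share lay below the intervals of both other stages.

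**Figure D1:**
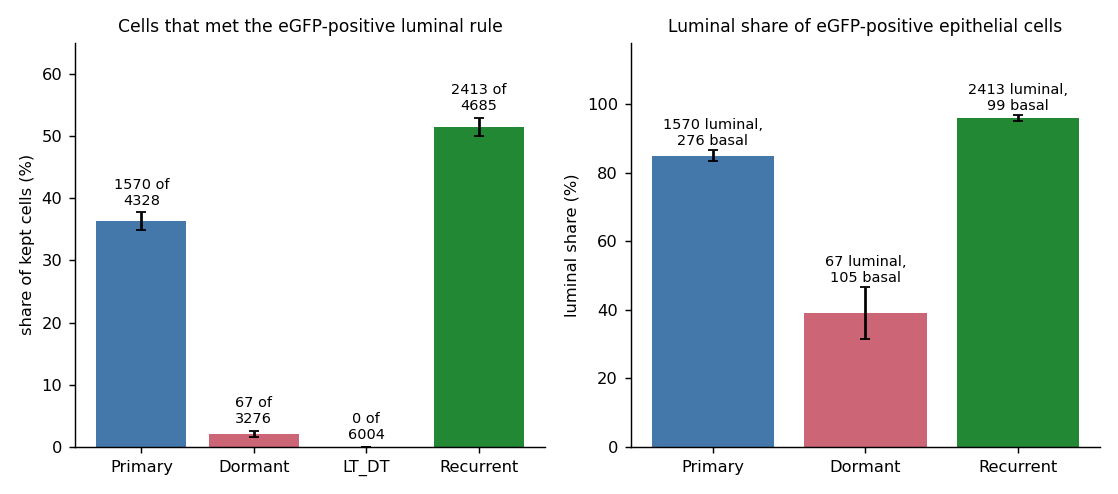
Left, share of kept cells (%) that met the eGFP-positive luminal rule in each library, and right, luminal share (%) of eGFP-positive epithelial cells, with exact 95% Clopper-Pearson intervals as bars. Dormant is lowest of the drawn stages in the right panel (38.95%), and LT_DT has 0 members in the left panel.

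At the median, members carried more of the reporter and keratins than the rule required. Median eGFP was 30 UMIs per cell in Primary, 40 in Dormant and 63 in Recurrent members, and the median of Krt8 and Krt18 together was 14, 29 and 22 UMIs in the same order. At the edge of the rule, 3 Primary, 2 Dormant and 15 Recurrent members held exactly 1 eGFP UMI, while 4, 23 and 25 cells met every other limit with 0. Exactly 3 Krt8 and Krt18 UMIs were held by 74 Primary, 4 Dormant and 43 Recurrent members, and 68, 9 and 34 cells fell just outside with 2. No basal keratin UMI at all was seen in 1474 Primary, 57 Dormant and 2066 Recurrent members. Exactly 2 were held by 17 Primary, 2 Dormant and 90 Recurrent members, and exactly 3, just outside, by 18, 3 and 34 cells. A further 79 Primary, 26 Dormant, 1 LT_DT and 127 Recurrent cells met the rule except for Ptprc.

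The eGFP level summed over members was 5638 CPM (UMIs scaled to a total of 1000000) in Primary, 4720 CPM in Dormant and 6874 CPM in Recurrent. In the Ptprc-positive cells of the same libraries, where free RNA and doublets can add it, it was 428.6, 339.1 and 1113.0 CPM. Members were selected on eGFP and on the lack of Ptprc, so this gap is set by the rule. Epcam, an adhesion protein of epithelium that the rule did not use, was at 1227 CPM in Primary, 851 CPM in Dormant and 1075 CPM in Recurrent members. In Ptprc-positive cells it was at 101.5, 69.3 and 174.7 CPM.

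Depth per member was uneven. Members summed to 10506908 UMIs in Primary, 724855 in Dormant and 26271342 in Recurrent, with medians of 5793, 9285 and 9610 UMIs and 1763, 2212 and 2497 genes per cell. A gene with 0 UMIs could therefore still be present at up to 0.2855 CPM in Primary, 4.139 CPM in Dormant and 0.1142 CPM in Recurrent members, at 3 counts. The median mitochondrial share was 5.915%, 3.570% and 3.683%. Of the cell barcodes, 194 occurred in more than 1 stage library, and 83 members carried a barcode also seen in another.

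RNA of other cells was not spread evenly. T and NK cell markers summed to 26.08 CPM in Primary, 219.4 CPM in Dormant and 13.06 CPM in Recurrent members, and in Dormant they were found in 26 of 67 cells. All 7 of these markers were detected in each stage. B and plasma cell markers summed to 7.424, 291.1 and 5.710 CPM, with UMIs in 63 of the 67 Dormant cells and Ms4a1, which marks B cells, at 0 in all 3 groups. Fibroblast markers summed to 3.426, 168.3 and 31.21 CPM, and 68.03% of those in Dormant came from 1 cell. Myeloid markers summed to 466.5, 215.2 and 495.7 CPM, with the macrophage gene Adgre1 at 0 in Dormant. Endothelial markers were near 3 CPM throughout. These markers were thus higher in the Dormant members for lymphoid cells and fibroblasts, and their part in the results below was not tested except where a value without such cells is given. A gene is called a free RNA candidate where it was over 5 times higher in Ptprc-positive, collagen-expressing or endothelial cells of the library in which the members had more of it.

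Levels were compared as log2 ratios of CPM for genes with at least 20 UMIs over both groups. A gene was counted as higher or lower when the ratio was at least 2-fold and its 95% Poisson interval left out equality. Between Dormant and Primary luminal cells 10644 genes could be compared, of which 7.07% were higher and 6.19% lower in Dormant, with a median log2 ratio of -0.01 over all genes. Counts for gene lists are to be read against these shares.

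Genes that hold back the cell cycle were higher in Dormant luminal cells. Of 7 CDK inhibitor genes, 4 were higher in Dormant than in Primary members and 0 were lower, with a median log2 ratio of 2.73. With a minimum of 100 UMIs per gene, which left fewer of them, the median was 0.51, and after thinning each cell to 1000 UMIs it was 1.21. Cdkn1a, which encodes p21, stood at 61.6 CPM in Primary, 628 CPM in Dormant and 96.8 CPM in Recurrent members (chromosome 17, 29090976 to 29100727, GRCm38). Its Dormant level was above both others, and the log2 ratio of Dormant to Primary was 3.35 (3.17 to 3.53). Cdkn2a, the locus of p16 and p19Arf, stood at 12.8, 93.8 and 24.02 CPM in Primary, Dormant and Recurrent members, with a log2 ratio of Dormant to Primary of 2.88 (2.44 to 3.31). Cdkn2b, which encodes p15, was at 4.00, 26.2 and 10.4 CPM and had a log2 ratio of 2.73. The fourth, Cdkn1c (p57), was at 5.24, 59.3 and 1.18 CPM, but 62.79% of its Dormant UMIs came from 1 cell. Cdkn1b (p27) was at 24.9, 30.4 and 13.4 CPM, a Dormant to Primary log2 ratio of 0.31 that was not past 2-fold.

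Cdkn1a was not the product of a few Dormant cells. It had a UMI in 298 of 1570 Primary, 59 of 67 Dormant and 799 of 2413 Recurrent members, or 18.98%, 88.06% and 33.11%. Since deeper cells show more genes, each cell was also thinned to 1000 UMIs, which left out 3 Primary and 7 Recurrent members. Cdkn1a was then found in 6.063% (4.932 to 7.361%) of Primary, 40.30% (28.49 to 53%) of Dormant and 8.063% (7.006 to 9.224%) of Recurrent members. In thinned Ptprc-positive cells the shares were 18.66%, 12.77% and 27.15%, so the Dormant luminal share lay above that of the blood cells of its own library. The Dormant interval did not meet those of the other stages.

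The p53 target genes were higher in Dormant members as well. Of 11 measured, 8 were higher and 0 lower than in Primary, with a median log2 ratio of 2.16. Phlda3, an inhibitor of Akt, was at 33.2 CPM in Primary, 237 CPM in Dormant and 24.5 CPM in Recurrent members (log2 ratio of Dormant to Primary 2.84, 2.565 to 3.104). Sesn2, a stress sensor that restrains mTORC1, was at 4.76, 33.1 and 9.06 CPM, and Zmat3, an RNA-binding protein, at 13.5, 62.1 and 16.1 CPM. Mdm2, the ligase that degrades p53, was at 26.4, 74.5 and 33.9 CPM, with the smallest ratio of the 8 at 1.51 (1.05 to 1.92). Eda2r (1.24, 11.04 and 2.17 CPM), Gdf15 (2.57, 11.04 and 2.40 CPM), Trp53inp1 (20.3, 92.4 and 12.4 CPM) and cyclin G1, Ccng1 (31.9, 127 and 36.0 CPM), made up the rest. The Dormant levels of Eda2r and Gdf15 rest on few UMIs, since 3 counts there are 4.139 CPM. The pro-apoptotic Bax was at 188, 319 and 188 CPM, Plk2 at 90.9, 161 and 63.7 CPM and Btg2, which slows division, at 697, 534 and 266 CPM, and none of these 3 passed 2-fold between Dormant and Primary.

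In Recurrent members most genes of both groups were lower than in Dormant. Between Recurrent and Dormant luminal cells, 5.7% of 11429 genes were higher in Recurrent and 9.04% lower. Of the 11 p53 targets 10 were lower in Recurrent than in Dormant members (median log2 ratio -1.90), and of the 7 CDK inhibitors 6 were (median -1.42). Between Recurrent and Primary, 5.05% of 11825 genes were higher in Recurrent and 8.31% lower, and Btg2 was the only p53 target counted on either side, with a log2 ratio of -1.39 and a list median of 0.00. Of the CDK inhibitors 1 was higher in Recurrent than in Primary, Cdkn2b with a log2 ratio of 1.36, and 1 lower, Cdkn1c with -2.14 (median -0.17). Dormant and Recurrent comparisons with Primary share the Primary library.

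Genes of cell division were lower in Recurrent members. Of 20 mitotic genes, 15 were lower in Recurrent than in Primary members and 0 higher (median log2 ratio -1.41), and 4 were lower and 0 higher in Dormant (median -0.53). Without the cells that held a UMI of Mki67, Top2a, Cdk1, Ccnb1 or Ccna2, the Recurrent median was -0.78. These 5 genes belong to the list, so the cut empties them by design, and it left 7 of the 20 genes measured. The median was -3.05, over 17 genes, without the cells that held 2 or more UMIs of other lineages. Mki67, a marker of cycling cells, was at 36.5 CPM in Primary, 17.9 CPM in Dormant and 13.6 CPM in Recurrent members. Top2a, a topoisomerase of replicated chromosomes, was at 46.4, 22.1 and 13.6 CPM, and Cdk1, the mitotic kinase, at 51.5, 16.6 and 17.9 CPM. After thinning, the log2 ratio of Dormant to Primary was 0.49 for Top2a. Cenpf, a kinetochore protein, was at 46.6, 23.4 and 9.36 CPM, lower in Recurrent than in Primary by a log2 ratio of -2.31 (-2.54 to -2.09). In Dormant 1 cell often held most of the UMIs of such a gene, as with 81.48% of those of cyclin B1 (Ccnb1), whose levels were 31.5, 37.2 and 10.8 CPM. After thinning, at least 2 mitotic UMIs were found in 7.913% of Primary (124 of 1567), 5.970% of Dormant (4 of 67) and 3.325% of Recurrent members (80 of 2406). The Dormant interval (1.650 to 14.59%) met both others.

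Genes of DNA replication were lower in Recurrent members as well, with 3 of 19 lower and 0 higher than in Primary (median log2 ratio -0.65). In Dormant, 1 was higher and 1 lower than in Primary members (median 0.32), the histone mRNA binding protein Slbp at 149 against 59.4 CPM and the reductase subunit Rrm2 at 23.5 against 55.5 CPM. Against Dormant, 9 of the 19 were lower in Recurrent members (median -0.97), among them the helicase subunit Mcm6 at 13.1 against 46.9 CPM. Within Recurrent, at least 2 mitotic UMIs were found in 1 of 194 thinned members with a Cdkn1a UMI (0.5155%, 0.01305 to 2.838%) and in 3.571% (2.838 to 4.431%) of those without. In Primary the shares were 10.53% (5.164 to 18.51%, 10 of 95) and 7.745% (6.430 to 9.230%). In Dormant they were 7.407% (0.9100 to 24.29%, 2 of 27) and 5.000% (0.6114 to 16.92%), with intervals that overlapped.

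Promoters of mitotic genes are known to carry CCAAT boxes bound by NF-Y and a CHR element, TTTGAA. Because the mitotic list was lower in Recurrent members, the 250 bases before the annotated start are shown for 2 of its members, read on the strand of the gene from the RefSeq promoters of GRCm38.p6, with CCAAT and TTTGAA on either strand (reverse ATTGG and TTCAAA) in capitals. Cdk1 is at chr10:69352913-69353162 and Top2a at chr11:99024190-99024439, both on the minus strand.
Cdk1: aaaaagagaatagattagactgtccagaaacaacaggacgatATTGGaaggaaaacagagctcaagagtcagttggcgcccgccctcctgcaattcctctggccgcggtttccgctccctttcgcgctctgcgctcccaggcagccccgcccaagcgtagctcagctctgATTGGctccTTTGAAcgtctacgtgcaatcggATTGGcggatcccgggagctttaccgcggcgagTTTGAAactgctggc
Top2a: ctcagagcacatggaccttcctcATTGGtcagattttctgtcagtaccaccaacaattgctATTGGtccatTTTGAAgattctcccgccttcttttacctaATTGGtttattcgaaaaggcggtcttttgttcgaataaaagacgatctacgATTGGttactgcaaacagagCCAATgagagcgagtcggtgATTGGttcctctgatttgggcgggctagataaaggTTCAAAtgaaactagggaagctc
The Cdk1 window held 3 matches of CCAAT and 2 of TTTGAA, and that of Top2a 6 and 2. Of the 20 listed genes 17 had an entry, and CCAAT occurred in the windows of 14 of them (82.35%), against 37.49% of all 27025 genes with an entry. A gene was counted when any of its windows held the motif. TTTGAA occurred in 6 (35.29%), against 18.26% of all. A match is a string of letters in these windows and shows no binding.

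Hypoxia and glycolysis genes were lower in Dormant luminal cells. Of 15 measured, 8 were lower and 0 higher than in Primary members, with a median log2 ratio of -1.30, and against Dormant 7 were higher and 1 lower in Recurrent members (median 0.98). Bnip3, a mitophagy protein of hypoxic cells, was at 60.9 CPM in Primary, 5.52 CPM in Dormant and 49.5 CPM in Recurrent members. Its UMIs came from 363, 4 and 696 cells, and the log2 ratio of Dormant to Primary was -3.30 (-5.35 to -2.10). Egln3, an oxygen-sensing prolyl hydroxylase, was at 70.6, 11.04 and 27.2 CPM, and Ankrd37, a hypoxia-induced ankyrin protein, at 35.1, 9.66 and 26.3 CPM. Ankrd37 had 7 Dormant UMIs, and its log2 ratio of Dormant to Primary changed sign to 0.41 after thinning and to 0.19 in the 7 Dormant members given below. Among glycolytic enzymes, Pgk1 was at 422, 152 and 290 CPM, Eno1 at 1032.5, 388 and 868 CPM and Aldoa at 924, 356 and 965 CPM. Pfkp (29.0, 9.66 and 29.3 CPM) and the angiogenic factor Vegfa (42.5, 16.6 and 33.9 CPM) were the remaining 2 that were lower in Dormant. Ldha, which makes lactate, was at 613, 452 and 969 CPM and did not pass 2-fold between Dormant and Primary. After thinning, members held a mean of 3.452 UMIs of this list in Primary, 1.582 in Dormant and 3.685 in Recurrent. With the 7 Dormant members that held fewer than 2 UMIs of other lineages, the median log2 ratio of Dormant to Primary was -0.63. By contrast 0 of 15 nuclear-encoded respiratory chain genes passed 2-fold in any of the 3 stage comparisons.

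Hypoxia-inducible factors bind the core ACGTG (reverse CACGT). The 250 bases before the start are shown for 4 of the genes lower in Dormant members, again from RefSeq on GRCm38.p6 and in the direction of the gene, with ACGTG on either strand in capitals. Bnip3 is at chr7:138909507-138909756, Egln3 at chr12:54203875-54204124 and Ankrd37 at chr8:45999851-46000100, all on the minus strand, and Pgk1 at chrX:106186850-106187099 on the plus strand.
Bnip3: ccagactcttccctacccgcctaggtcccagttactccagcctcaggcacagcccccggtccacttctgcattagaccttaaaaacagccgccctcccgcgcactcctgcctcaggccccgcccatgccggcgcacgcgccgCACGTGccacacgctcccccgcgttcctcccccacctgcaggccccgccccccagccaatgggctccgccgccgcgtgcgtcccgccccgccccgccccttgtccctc
Egln3: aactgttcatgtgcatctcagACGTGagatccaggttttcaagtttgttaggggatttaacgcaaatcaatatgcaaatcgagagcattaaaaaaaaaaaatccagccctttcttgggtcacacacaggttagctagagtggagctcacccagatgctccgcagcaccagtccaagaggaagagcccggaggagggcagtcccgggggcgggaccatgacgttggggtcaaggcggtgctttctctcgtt
Ankrd37: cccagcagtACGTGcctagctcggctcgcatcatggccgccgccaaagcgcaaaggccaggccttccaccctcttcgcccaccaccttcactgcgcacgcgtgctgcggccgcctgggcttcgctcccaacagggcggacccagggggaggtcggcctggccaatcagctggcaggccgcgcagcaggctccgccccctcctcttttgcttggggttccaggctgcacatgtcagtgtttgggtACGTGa
Pgk1: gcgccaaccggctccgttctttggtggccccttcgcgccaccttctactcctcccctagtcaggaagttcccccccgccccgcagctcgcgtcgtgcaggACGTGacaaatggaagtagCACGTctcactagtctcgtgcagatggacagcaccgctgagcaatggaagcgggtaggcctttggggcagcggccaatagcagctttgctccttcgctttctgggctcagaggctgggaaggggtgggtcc
The 2 matches of Bnip3 overlap in the palindrome CACGTG, Egln3 had 1, and Ankrd37 and Pgk1 had 2 each. Of 16 listed genes 15 had an entry, and the motif occurred in the windows of 11 (73.33%), against 18.49% of all 27025 genes with an entry. The match is a description of these windows and not of occupied sites.

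**Figure D2:**
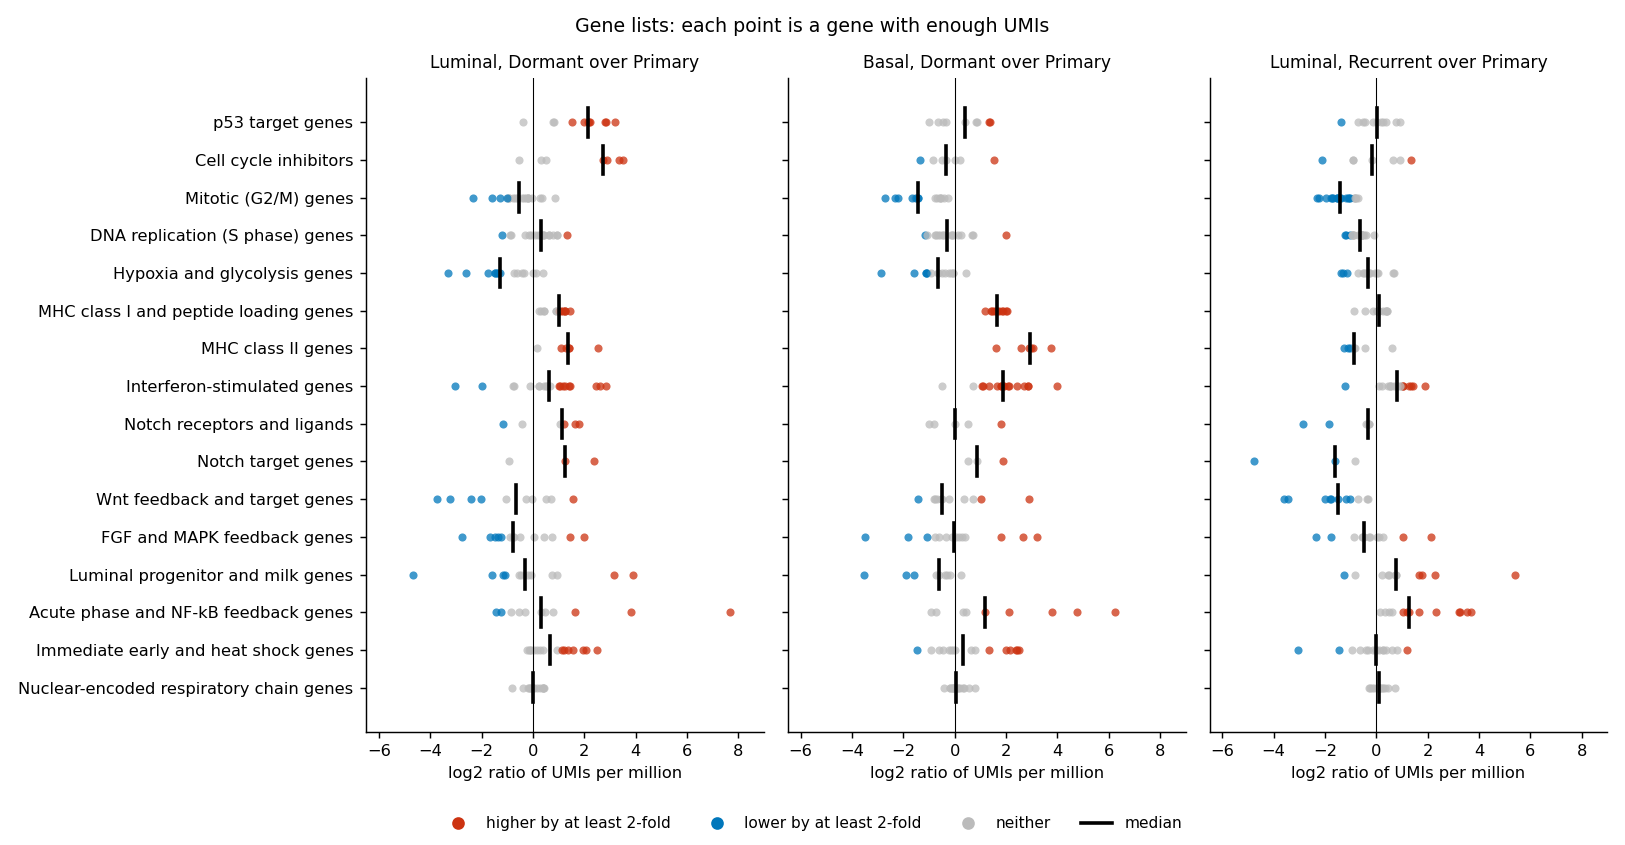
Log2 ratio of CPM (x axis) for the measured genes of 16 lists (rows) in luminal cells of Dormant over Primary, basal cells of Dormant over Primary and luminal cells of Recurrent over Primary, with the list median as a bar. In the left panel the medians of p53 targets (2.16) and cell cycle inhibitors (2.73) lie far right and that of hypoxia genes (-1.30) left, while the respiratory chain sits at 0.

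The same lists were read in the basal tumour cells. Between Dormant and Primary basal cells, 8.3% of 8566 genes were higher and 12.4% lower in Dormant. Of 9 p53 targets 2 were higher and 0 lower (median log2 ratio 0.40), and of 7 CDK inhibitors 1 was higher and 1 lower (median -0.33). Cdkn1a was at 389.8 CPM in Dormant basal cells against 133.9 CPM in Primary basal cells, a higher Primary level than the 61.6 CPM of Primary luminal cells. Hypoxia genes were lower in Dormant basal cells too, 5 of 15 with a median of -0.63, and mitotic genes 7 of 15 with a median of -1.42. Whether the luminal and basal differences differ from each other could not be tested.

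Antigen presentation genes were higher in Dormant in luminal and in basal cells. In luminal cells 6 of 13 MHC class I and peptide loading genes were higher in Dormant than in Primary and 0 lower (median log2 ratio 1.03), and in basal cells 11 of 11 were higher (median 1.64). With luminal cells that held 2 or more UMIs of other lineages left out, which leaves 7 Dormant members, the luminal median was 0.07. Psmb9, an immunoproteasome subunit, was at 120 CPM in Primary, 323 CPM in Dormant and 145 CPM in Recurrent luminal cells. Tap1, the peptide transporter, was at 74.3, 157 and 79.8 CPM, and Nlrc5, the activator of class I genes, at 12.3, 29.0 and 12.4 CPM. The heavy chain H2-K1 (2092, 2581 and 2112 CPM) and B2m (4650, 5510 and 4999 CPM) were near each other in all stages. In Recurrent against Primary members 0 of the 13 passed 2-fold in either direction.

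MHC class II genes were higher in 5 of 6 cases in Dormant luminal cells (median log2 ratio 1.36, or 0.68 with cells of 2 or more other-lineage UMIs left out), and 3 of these, Cd74, H2-Aa and H2-Ab1, were free RNA candidates. The 2 that were not were H2-Eb1 (6.47 CPM in Primary, 37.2 CPM in Dormant and 3.05 CPM in Recurrent) and the peptide editor subunit H2-DMa (27.6, 73.1 and 15.0 CPM). Cd74, the class II invariant chain, was at 529, 1414 and 294 CPM in members and at 25269, 7270 and 18669 CPM in Ptprc-positive cells. Its UMIs were in 46 of 67 Dormant members, with a median of 3 and a maximum of 124 per cell. Dormant basal cells had 6 of 6 class II genes higher (median 2.93), and 15 of 17 interferon-stimulated genes. In basal cells T and NK markers summed to 171.1 CPM in Dormant against 16.12 CPM in Primary, and fibroblast markers to 520.5 against 8.955 CPM. B and plasma cell markers summed to 4709 against 3.134 CPM, 89.12% of the Dormant ones from 1 cell, and the part of these cells was not tested.

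In luminal cells 9 of 20 interferon-stimulated genes were higher and 2 lower in Dormant than in Primary (median log2 ratio 0.61). Gbp2, an interferon-induced GTPase, was at 59.0 CPM in Primary, 156 CPM in Dormant and 94.9 CPM in Recurrent, a log2 ratio of Dormant to Primary of 1.41 (1.10 to 1.69). In the 7 Dormant members with fewer than 2 UMIs of other lineages it was -1.45. The chemokines Cxcl9 and Cxcl10 were higher as well but were free RNA candidates. The 2 lower ones were Ifit3, with 0 UMIs in Dormant and itself a free RNA candidate, which was at least 1.36-fold lower and counts as past 2-fold through the prior count alone, and the antiviral Rsad2 at 2.76 against 13.5 CPM on 2 Dormant UMIs (log2 ratio -1.98, -5.35 to -0.41). In Recurrent members 6 of 20 were higher and 1 lower than in Primary (median 0.81). Irf7, a driver of type I interferon, was at 54.1, 77.3 and 202 CPM, and Bst2 (tetherin), which holds virions at the membrane, at 216, 439 and 547 CPM.

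Wnt1 itself passed 2-fold between no pair of stages. It stood at 23.8 CPM in Primary, 19.3 CPM in Dormant and 18.5 CPM in Recurrent members (chromosome 15, 98789857 to 98793837). Its UMIs were found in 151 of 1570, 11 of 67 and 303 of 2413 members. Ptprc-positive cells held 2.08, 1.29 and 2.81 CPM and basal tumour cells 3.58, 1.19 and 7.57 CPM, so the luminal level was above both in every stage. Wnt5b, a ligand of the non-canonical branch, was at 11.1, 63.5 and 16.9 CPM.

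Most measured feedback and target genes of Wnt signalling were lower in Recurrent members, and some in Dormant ones. Of 11 measured, 8 were lower and 0 higher in Recurrent than in Primary members (median log2 ratio -1.51), and in Dormant 4 of 10 were lower and 1 higher (median -0.66). Nkd1, a Dishevelled-binding feedback inhibitor, was at 27.8 CPM in Primary, 1.38 CPM in Dormant (1 UMI) and 2.55 CPM in Recurrent, a log2 ratio of Recurrent to Primary of -3.44 (-3.85 to -3.06). Its log2 ratio of Dormant to Primary was -3.75, with an interval from -9.64 to -1.84. Znrf3, a ligase that removes Wnt receptors, was at 25.8, 4.14 (3 UMIs, log2 ratio -2.42, -4.93 to -1.08) and 7.38 CPM, and Wif1, which binds Wnt proteins, at 20.6, 29.0 and 7.19 CPM. Lgr6, a receptor of R-spondins, was at 31.7, 30.4 and 2.59 CPM, so that it was low in Recurrent alone. Axin2 was at 4.09, 2.76 and 3.31 CPM. Its log2 ratio of Recurrent to Primary, -0.31, was the smallest change of the 11 and not past 2-fold. Its Dormant level lay under the 3-count limit of 4.139 CPM. Kremen1, a receptor of Dkk proteins, had 0 UMIs in Dormant and was at least 1.54-fold lower there than at its Primary level of 6.38 CPM. Its place among the 4 rests on the prior count, and with such genes at their bound the Dormant median was -0.44. Ccnd1, cyclin D1, went the other way in Dormant at 168.5, 497 and 49.4 CPM (log2 ratio of Dormant to Primary 1.56, 1.39 to 1.72). A single cell held 19.44% of its Dormant UMIs.

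FGF and MAPK feedback genes were lower in Dormant in 5 of 14 cases and higher in 2 (median log2 ratio -0.76). Fgfr1 was at 60.6 CPM in Primary, 24.8 CPM in Dormant and 30.8 CPM in Recurrent members. The table does not tell the endogenous receptor from an engineered one. Etv4, a transcription factor induced by FGF, was at 23.2, 2.76 (2 UMIs) and 4.49 CPM, with a log2 ratio of Dormant to Primary of -2.75 (-6.13 to -1.21) that was 0.16 after thinning. Its relative Etv5 was at 64.0, 22.1 and 35.2 CPM and the ERK phosphatase Dusp6 at 342, 142 and 236 CPM. Spred1, an inhibitor of Ras activation, was at 48.3, 17.9 and 34.0 CPM, but its log2 ratio of Dormant to Primary was 0.47 with cells of 2 or more other-lineage UMIs left out. The 2 that were higher in Dormant were Dusp5, another ERK phosphatase, at 50.5, 135 and 102.5 CPM and the AP-1 member Fosl1 at 6.76, 26.2 and 29.8 CPM. Fgfr2 had 3 Primary, 5 Dormant and 0 Recurrent UMIs, too few to compare.

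Notch1 and Notch3 were higher in Dormant luminal cells, and Notch target genes were lower in Recurrent ones. Of 6 receptors and ligands 3 were higher and 1 lower in Dormant than in Primary (median log2 ratio 1.13), and against Dormant 4 of 6 were lower in Recurrent (median -1.79). Notch1 was at 27.8 CPM in Primary, 63.5 CPM in Dormant and 20.9 CPM in Recurrent, and Notch3 at 11.7, 40.0 and 9.44 CPM. Notch2 was at 20.2, 8.28 and 16.6 CPM, with a log2 ratio of Dormant to Primary of 0.20 after thinning, and Notch4 at 2.76, 1.38 and 0.761 CPM. The ligands were scarce. Jag1 was at 3.24, 9.66 (7 UMIs in 5 cells) and 2.63 CPM, Jag2 at 2.28, 4.14 and 0.304 CPM, and Dll1 at 1.14, 6.90 and 0.952 CPM.

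Of the target genes, Hes1, a repressor of differentiation, was at 103 CPM in Primary, 244 CPM in Dormant and 57.6 CPM in Recurrent members. Nrarp, which destabilises the active receptor, was at 5.42, 27.6 and 1.75 CPM. Hey1, a repressor related to Hes1, was at 42.8, 22.1 and 1.56 CPM, so that its log2 ratio of Recurrent to Primary was -4.76 (-5.28 to -4.31) while Dormant and Primary did not pass 2-fold. All 3 were lower in Recurrent than in Dormant (median -3.85). Basal tumour cells held more Jag1, at 72.5 CPM in Primary, 41.6 CPM in Dormant and 10.4 CPM in Recurrent.

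**Figure D3:**
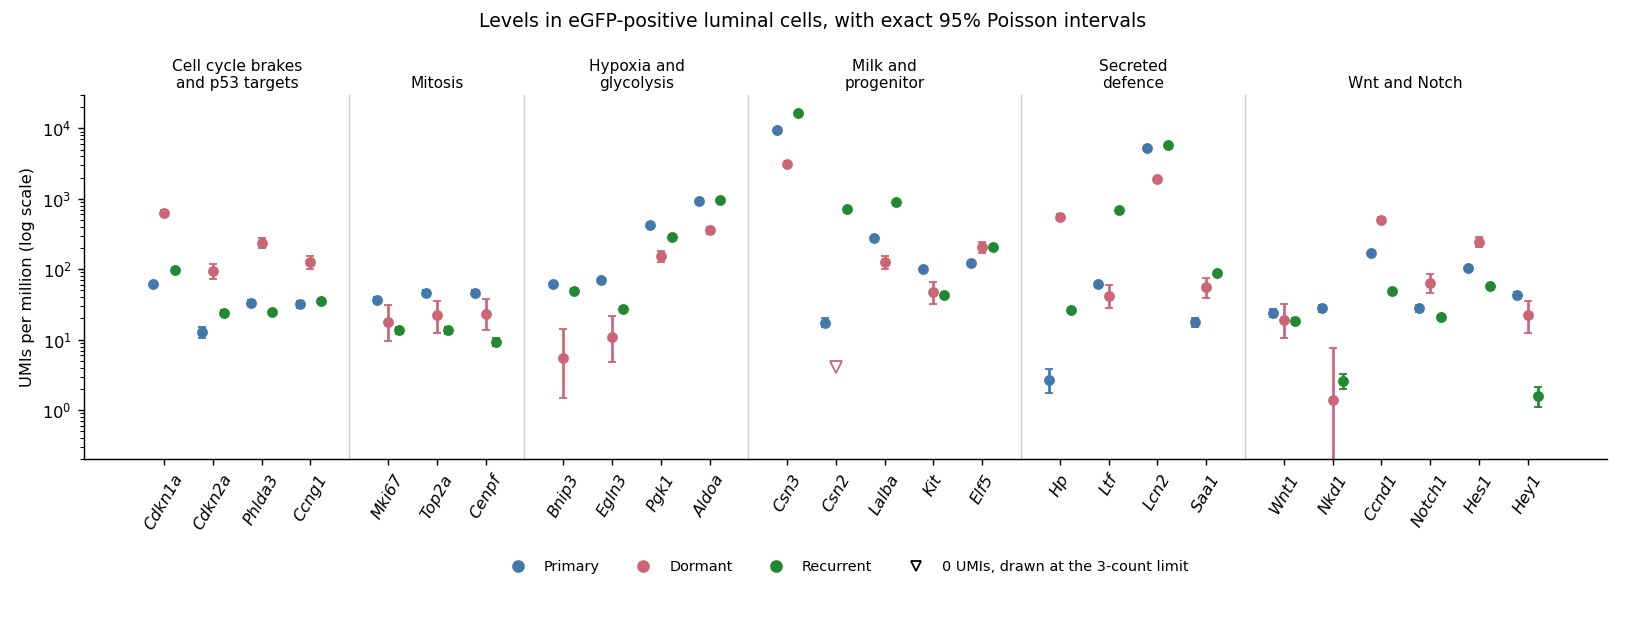
Level of named genes in eGFP-positive luminal cells, in CPM on a log axis, for Primary, Dormant and Recurrent, with exact 95% Poisson intervals; an open triangle marks 0 UMIs drawn at the 3-count limit. Cdkn1a stands at 61.6, 628 and 96.8 CPM, Bnip3 is lowest in Dormant, and Nkd1 and Hey1 are below the Primary level in Recurrent.

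Csn2, Lalba, Wap and Tspan8 were higher in Recurrent than in Primary members. They were 4 of the 12 luminal progenitor and milk genes measured, of which Kit was lower and 7 did not pass 2-fold (median log2 ratio 0.75). Against Primary, 2 of the list, Tspan8 and Aldh1a3, were higher in Dormant, and 4, Kit, Csn2, Csn3 and Lalba, were lower (median -0.32). The Csn2 call rests on few cells, since 13 of 1570 Primary members (0.8280%) held it. With 67 Dormant members, its 0 UMIs cannot show that the share of such cells fell. Csn3, kappa-casein, was among the most abundant genes of the members at 9605 CPM in Primary, 3143 CPM in Dormant and 16422 CPM in Recurrent. Its median per cell was 18, 16 and 119 UMIs and it was found in 1373 of 1570, 46 of 67 and 2388 of 2413 members. Spread among cells was wide, and the 157 Primary members with the most Csn3 held 53.41% of its UMIs. Lalba, alpha-lactalbumin, was at 280, 126 and 887 CPM. In the 7 Dormant members with fewer than 2 UMIs of other lineages the log2 ratio of Dormant to Primary was 0.23 for Csn3 and 1.70 for Lalba, of the opposite sign to that over all 67.

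Csn2, beta-casein, was at 17.3 CPM in Primary, 0 in Dormant and 728 CPM in Recurrent (chromosome 5, 87692624 to 87699630). Recurrent members were at least 175.8-fold above the Dormant 3-count limit, and the log2 ratio of Recurrent to Primary was 5.39 (5.18 to 5.61). It was held by few cells. It was found in 13 of 1570 Primary and 579 of 2413 Recurrent members, and 241 of the Recurrent members held 97.43% of the Recurrent UMIs. The whey protein Wap was at 18.2, 34.5 and 63.1 CPM. Outside the list, the caseins Csn1s1 (13.04, 13.8 and 167 CPM) and Csn1s2a (22.9, 2.76 and 176 CPM) were also higher in Recurrent than in Primary. The progenitor receptor Kit was lower in both later stages, at 102.3, 46.9 and 42.8 CPM, whereas Elf5, the transcription factor of the alveolar lineage, was at 122, 204 and 208 CPM and passed 2-fold between no pair of stages. The tetraspanin Tspan8 was at 2.57, 38.6 and 12.8 CPM and Aldh1a3, a retinal dehydrogenase, at 1.71, 15.2 and 2.44 CPM.

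**Figure D4:**
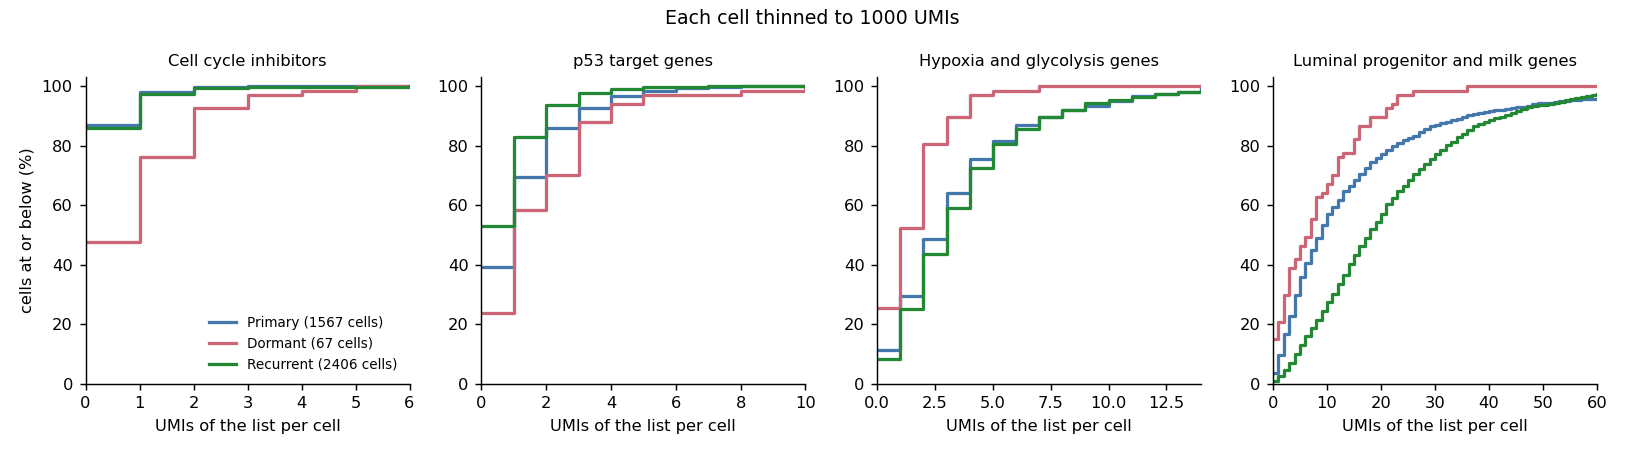
Cumulative share of cells (%) against the UMIs of a gene list per cell, with each cell thinned to 1000 UMIs, in 1567 Primary, 67 Dormant and 2406 Recurrent members. The Dormant line starts lowest for cell cycle inhibitors, since 52.24% of cells held a UMI against 13.08% in Primary and 14.21% in Recurrent, and the Recurrent line lies lowest for milk genes.

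Secreted defence proteins were higher in Recurrent members. Of 13 acute phase and NF-kB feedback genes, 9 were higher and 0 lower than in Primary (median log2 ratio 1.26). Ltf, the iron-binding lactoferrin, was at 61.2 CPM in Primary, 41.4 CPM in Dormant and 701 CPM in Recurrent, and was found in 150, 9 and 1528 cells. Saa1 and Saa2, serum amyloid A proteins, were at 17.8, 55.2 and 88.7 CPM and at 5.996, 9.66 and 55.7 CPM. Nfkbia, the feedback inhibitor of NF-kB, was at 384, 477 and 921 CPM. Lcn2, a siderophore-binding lipocalin, was at 5215, 1901 and 5775 CPM, lower in Dormant than in either other stage. In the 7 Dormant members with fewer than 2 UMIs of other lineages its log2 ratio of Recurrent to Dormant was -0.16. Hp, haptoglobin, had its own course at 2.67, 555 and 26.2 CPM, a log2 ratio of Dormant to Primary of 7.68 (7.15 to 8.31), in 12, 34 and 350 cells.

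Among chemokines and cytokines of epithelium, 6 of 15 were higher and 2 lower in Recurrent than in Primary members (median log2 ratio 0.24, or 1.61 without 9 free RNA candidates). Cxcl1, which attracts neutrophils, was at 266 CPM in Primary, 127 CPM in Dormant and 676 CPM in Recurrent, Ccl20 at 16.7, 4.14 and 120 CPM and Csf3, the granulocyte growth factor, at 6.57, 2.76 and 46.0 CPM. After thinning, 30.44% of Primary, 34.33% of Dormant and 57.56% of Recurrent members held a UMI of the list. S100a8, a subunit of calprotectin that also serves as a neutrophil marker, was at 51.4, 12.4 and 217 CPM in members and at 57.2, 74.7 and 97.5 CPM in Ptprc-positive cells.

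Genes of luminal identity beyond the gating keratins had list medians near 0, while single members moved in either direction in Dormant. Of 15 genes, 2 were higher and 2 lower in Dormant than in Primary (median log2 ratio -0.07, range -2.72 to 2.26), and 0 passed 2-fold between Recurrent and Primary. Against Dormant, 1 was higher and 2 lower in Recurrent (median 0.17). Krt19, a luminal keratin outside the rule, was at 183 CPM in Primary, 873 CPM in Dormant and 194 CPM in Recurrent, and the epithelial transcription factor Elf3 at 21.03, 75.9 and 40.4 CPM. Prom1, a membrane protein of luminal cells, was at 50.1, 6.90 and 33.5 CPM. Outside this list, the water channel Aqp5 was high in Primary, at 1195 CPM, with a log2 ratio to Primary of -3.34 in Dormant and of -3.34 in Recurrent.

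Heat shock genes went with the Dormant library. Of 16 immediate early and heat shock genes 7 were higher and 0 lower in Dormant than in Primary (median log2 ratio 0.68), and 8 were lower and 1 higher in Recurrent than in Dormant (median -0.98). Hspa1a, an inducible Hsp70, was at 425 CPM in Primary, 977 CPM in Dormant and 50.8 CPM in Recurrent members, and at 293, 594 and 59.5 CPM in Ptprc-positive cells, in the same order of stages. The immediate early gene Fos was at 1477, 1254 and 1118 CPM. Such genes also respond to tissue dissociation, and the part of that was not tested.

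Basal genes beyond the gating keratins showed how much a few cells can weigh in the Dormant sum. Of 8 measured, 5 were higher and 0 lower in Dormant than in Primary (median log2 ratio 2.51), but with cells that held any basal keratin UMI left out the median was -0.16. Acta2, smooth muscle actin, was at 13.4 CPM in Primary, 106 CPM in Dormant and 0.304 CPM in Recurrent, and its 77 Dormant UMIs came from 7 cells, 53.25% of them from 1. In Recurrent 7 of 9 of these genes were lower and 1 higher than in Primary (median -1.62).

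The genes with the largest ratios of Dormant to Primary that passed the naming rule were led by Upk3a, a uroplakin of the bladder lining, at 826 CPM in Dormant against 0.190 CPM in Primary. Apod, the lipid carrier apolipoprotein D, was at 371 against 0.0952 CPM and Fam25c at 131 against 0.0952 CPM. Hp, Dapl1, Ptn, Wfdc2, Pde6a, Ubd and Wfdc3 followed, with log2 ratios between 3.49 and 7.68. At the lower end stood Car6, a secreted carbonic anhydrase, at 11.04 CPM in Dormant against 174 CPM in Primary. The collagen Col9a1 (16.6 against 233 CPM), Crispld2 (17.9 against 246 CPM) and the antibacterial Pglyrp1 (45.5 against 392 CPM) were close behind. In Recurrent against Primary, Csn2 was followed by Prtn3, a serine protease of neutrophil granules, at 249 against 9.14 CPM. Prtn3 was found in 1499 of 2413 members and at 57.1 CPM in Ptprc-positive Recurrent cells. The kallikreins Klk10 (409 against 48.9 CPM) and Klk6 (92.0 against 17.04 CPM) and the prohormone peptidase Cpe (267 against 43.1 CPM) were also among the top 10. Scgb2b27 (12.1 against 126 CPM) and Thbs1, thrombospondin (53.8 against 240 CPM), were among the lowest.

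The Dormant members were not uniform, and the Upk3a signal lay in 8 of the 67 cells. These 8 held at least 5 Upk3a UMIs each (median 38.5, maximum 182) and 598 of the 599 Upk3a UMIs of the Dormant members. The split was made after the values were seen and is a description. In the 8 cells Csn3, Lalba, Elf5, Lcn2, Spp1, Apod, Nrarp and Wnt1 all had 0 UMIs, of 61715 in total. A gene at 0 there could still be present at up to 48.61 CPM at 3 counts. Wnt1 (21.11 CPM) and Nrarp (30.16 CPM) lay under that limit in the other 59 cells, so for these genes the 0 shows no difference. In the other 59 cells Csn3 had 2278 UMIs in 46 cells, Lcn2 1378 in 54 and Elf5 148 in 38, of 663140 in total. Of the hormone-sensing genes, Foxa1 and Cited1 lay the other way. The pioneer factor Foxa1 had 16 UMIs in 6 of the 8 cells and 1 UMI in the other 59, and the coactivator Cited1 had 40 UMIs in 6 of the 8 and 0 in the other 59. The receptors were sparse or in both sets. Esr1 had 1 UMI in 1 of the 8 cells and 4 UMIs in 4 of the other 59, and Pgr 2 UMIs in 1 of the 8 and 0 in the others. Prlr was in 3 of the 8 and 19 of the 59, and Areg in 2 and 6. Wfdc2, a secreted protease inhibitor, had 194 and 6 UMIs and Ptn, a heparin-binding growth factor, 187 and 38.

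Other genes were found in most cells of both sets. Krt19 was found in 8 of 8 and in 45 of 59 cells, at 2674 and 706 CPM. Cdkn1a was found in 7 of 8 and in 52 of 59 cells, at 470 and 642 CPM. Cells with at least 5 Upk3a UMIs were also found among the Dormant eGFP-negative luminal cells (5 of 23), the Dormant basal cells (2 of 105), the Dormant Ptprc-positive cells (5 of 1619) and the LT_DT eGFP-negative luminal cells (2 of 96), and in none of the Primary and Recurrent groups counted. Without the 8 cells, the median log2 ratios of Dormant to Primary were 2.19 for p53 targets, 2.79 for CDK inhibitors and -1.17 for hypoxia genes.

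**Figure D5:**
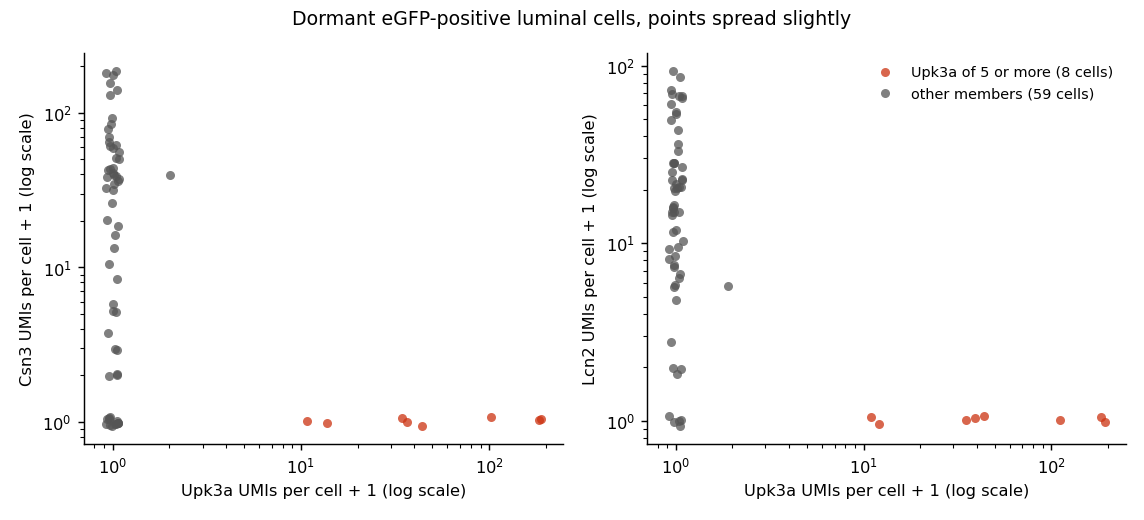
UMIs per cell of Csn3 (left) and Lcn2 (right) against those of Upk3a in the 67 Dormant members, each plus 1 on log axes with points spread slightly so that equal values can be seen. The 8 cells with at least 5 Upk3a UMIs all lie at 0 Csn3 and 0 Lcn2 UMIs.

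The eGFP-positive luminal cells of the Dormant library were also set beside its 23 eGFP-negative luminal cells, which met every other limit. Of 4476 genes 10.1% were higher and 6.72% lower in the eGFP-positive cells. Hormone-sensing genes were lower in 5 of 5 cases (median log2 ratio -4.11), such as the prolactin receptor Prlr at 67.6 CPM in eGFP-positive against 930 CPM in eGFP-negative cells, Cited1 at 55.2 against 960 CPM and Areg, an EGF receptor ligand, at 29.0 against 979 CPM. Interferon-stimulated genes were higher in 11 of 13 cases (median 2.88), with Isg15, a ubiquitin-like protein, at 159 CPM against 0 UMIs. Of 20 listed, 13 reached the minimum, which the eGFP-positive cells meet more readily with 724855 UMIs against 164537. With genes at 0 set to their bound the median was 2.51, and 3 of the 13 were free RNA candidates. Csn3 was at 3143 against 681 CPM and Ccnd1 at 497 against 54.7 CPM. Cdkn1a was at 628 against 401 CPM, a log2 ratio of 0.64 that did not pass 2-fold, whereas Cdkn2a was at 93.8 against 12.2 CPM (log2 ratio 2.64). Wnt1 had 14 UMIs in the eGFP-positive cells and 0 in the eGFP-negative ones, under the minimum for a comparison.

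Luminal and basal tumour cells were last compared within each stage, where the rule itself separates them by keratin and the values are a description. In Primary, 7.15% of 10944 genes were higher and 9.66% lower in luminal than in basal cells. Progenitor and milk genes were higher in 9 of 12 cases (median log2 ratio 2.78), and basal genes lower in 10 of 10 (median -5.65). Wnt1 was at 23.8 CPM in luminal against 3.58 CPM in basal cells, while Wnt feedback genes were lower in 9 of 12 cases in luminal cells (median -1.62). Notch3 was at 11.7 against 3.13 CPM and Hey1 at 42.8 against 8.51 CPM, and the ligands Jag1 at 3.24 against 72.5 CPM and Jag2 at 2.28 against 34.5 CPM. The CDK inhibitors were lower in 4 of 7 cases in Primary luminal cells (median -1.12).

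In Dormant, 8.27% of 6376 genes were higher and 9.79% lower in luminal than in basal cells. Progenitor and milk genes were higher in 9 of 10 cases (median 3.01), and Spp1, osteopontin, was at 1451 against 49.9 CPM. The CDK inhibitors were higher in 1 of 6 cases and lower in 0 (median 0.63), and Cdkn1a was at 628 against 390 CPM, not past 2-fold. Ccnd1 was at 497 CPM in luminal against 175 CPM in basal cells in Dormant, and at 168.5 against 470 CPM in Primary. Wif1, which binds Wnt ligands, was at 29.0 CPM in luminal against 805 CPM in basal cells.

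In Recurrent, 0.833% of 11404 genes were higher and 4.76% lower in luminal than in basal cells. Progenitor and milk genes were higher in 1 of 12 cases and lower in 1 (median log2 ratio 0.22). Csn3 was at 16422 CPM in luminal against 10727 CPM in basal cells and Elf5 at 208 against 231 CPM. Most of these basal cells carried both keratin groups, as given above. The genes that were lower in luminal cells included the cornified envelope gene Cnfn, the keratin Krt6a and Cst6, a protease inhibitor of skin, at 10.6 against 1901 CPM.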

How the data were processed

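Droplet single-cell RNA-seq of 4 stage libraries was deposited as 1 table of whole-number UMI counts per gene and cell. The authors made these counts with Cell Ranger 3.1.0 on mm10, per the submitters' processing notes, and no normalization had been applied. Cells, 19668 in all with 22547 genes, were assigned to libraries by the table's cell names. The rule and all gene lists (30 lists, 9 marker lists) were chosen with earlier results of these data known. UMIs were summed over member cells per library, scaled to CPM and compared as log2 ratios with a prior of 0.5 UMIs, with exact conditional Poisson intervals. With 1 library per group nothing was tested, and intervals and 3-count floors cover counting error, not animals. Shares have exact Clopper-Pearson intervals. The ratio step was first tested on simulated independent Poisson counts. These hold no clumping of UMIs in single cells, so the simulation does not check intervals of genes held by few cells.

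For each comparison the text names the 10 highest and 10 lowest genes at a mean of at least 50 CPM with an interval outside 2-fold, without free RNA candidates, a fixed set of Wnt, Notch, FGF, cell cycle and lineage genes, and up to 4 members of each list. Genes named beyond these, the Upk3a split and 2 of the 16 alternatives were chosen after values were seen. Scrublet (scanpy 1.11.5) predicted 53 doublets in Primary, 0 in Dormant, 137 in LT_DT and 57 in Recurrent, and they were kept, 8 Primary and 14 Recurrent members among them. Promoters are RefSeq's on GRCm38.p6, and gene positions are GENCODE vM21's. Python 3.11.15, numpy 2.4.6, scipy 1.17.1, matplotlib 3.10.9, R 4.3.3 and edgeR 4.0.16 (TMM factors only) were used.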

Additional observations from a re-analysis of the deposited data

Results flagged for a closer look

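Among the members of the gene lists and the top-ranked genes, 7 passed 2-fold in opposite directions in luminal and basal tumour cells of the same pair of libraries. No such count over all genes is given, so 7 cannot be called many or few. None of these differences was tested, since each stage is 1 library.

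Between Dormant and Primary, Ccnd1 (cyclin D1) had a log2 ratio of 1.56 in luminal and -1.42 in basal cells, and the membrane glycoprotein Cd200 one of 1.05 in luminal and -1.53 in basal cells. The chemokine Cxcl1 was lower in Dormant luminal cells at -1.06 and higher in Dormant basal cells at 1.02. Thrombospondin, Thbs1, followed the same pattern at -1.91 and 1.64.

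Between Recurrent and Primary, the keratin Krt16 had a log2 ratio of -2.20 in luminal and 3.42 in basal cells, the secretoglobin Scgb2b27 one of -3.38 and 1.51, and the protease inhibitor Wfdc2 one of -1.72 and 2.50. Recurrent basal cells numbered 99, of which 79 also carried the luminal keratins.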

How the results depend on the processing

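Leaving out a replicate was not possible with 1 library per stage. No paired analysis was possible because the labels give no replicate numbers and no test was made. Leaving out predicted doublets removed no Dormant member, because none was called there. Over 16 alternatives, shares of kept cells stayed within their counting interval in 19 cases and left it in 9. Counts of genes stayed within 1.5-fold in 82 cases and not in 14. List medians moved by less than that factor in 1261 cases and by more in 93, and 4 changed sign. The causes of these shifts were not tested, except that thinning and higher minimums leave fewer genes.

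Member shares were 31.40% in Primary and 48.75% in Recurrent with at least 6 Krt8 and Krt18 UMIs, 34.06% and 44.10% with no basal keratin UMI, and 18.78% and 23.32% when the rule was applied after thinning. With cells holding 2 or more UMIs of other lineages left out they were 14.51% in Primary, 0.2137% in Dormant and 13.85% in Recurrent.

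Counts of genes higher in Dormant than in Primary were 203 with those cells left out, 225 after thinning and 372 with a minimum of 100 UMIs, against 752. Counts lower were 108 with those cells left out and 153 after thinning, against 659. For Recurrent over Primary, 346 were higher after thinning and 382 with a minimum of 100 UMIs, against 597, and 488 and 517 were lower, against 983. For Recurrent over Dormant, 148 were higher with those cells left out and 222 after thinning, against 651, and 184, 232 and, with a minimum of 100 UMIs, 625 were lower, against 1033.

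The Dormant over Primary median of basal genes beyond the gating keratins was 0.49 with at least 3 eGFP UMIs, 0.26 with at least 6 Krt8 and Krt18 UMIs, -0.16 with no basal keratin UMI, 0.50 without cells holding other lineages' UMIs, -0.12 with a minimum of 100 UMIs and 1.25 without cells with 5 or more UMIs of T, NK, myeloid, fibroblast or endothelial markers. Its Recurrent over Primary median was -0.77 with at least 6 Krt8 and Krt18 UMIs, -1.01 with no basal keratin UMI, -0.91 after the rule on thinned cells and -2.28 without cells of other lineages' UMIs. Its Recurrent over Dormant median was -1.56 with at least 3 eGFP UMIs, -1.13 with at least 6 Krt8 and Krt18 UMIs, -0.19 with no basal keratin UMI, -1.66 without cycling cells and -4.13 with a minimum of 5 UMIs.

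For cell cycle inhibitors the Dormant over Primary median was 1.67 with no basal keratin UMI, 1.29 after the rule on thinned cells, 1.99 without cells of other lineages' UMIs, 1.21 after thinning and 0.51 with a minimum of 100 UMIs. For p53 targets it was 1.55 after the rule on thinned cells. Without cells of other lineages' UMIs it was -0.63 for hypoxia genes, 0.07021 for MHC class I and 0.68 for MHC class II. The Recurrent over Primary median of mitotic genes was -3.05 without cells of other lineages' UMIs and -0.78 without cycling cells. Cycling cells were picked by 5 genes of this same list. The Recurrent over Dormant median of hormone-sensing genes, -1.75, was 0.18 after the rule on thinned cells, -0.49 without cycling cells and 0.47 without the cells with 5 or more Upk3a UMIs. In the same comparison the median of Wnt ligands was -0.59 with at least 6 Krt8 and Krt18 UMIs and -0.35 after the rule on thinned cells, that of Notch receptors and ligands -1.20 after thinning, and, without cells of other lineages' UMIs, that of p53 targets -1.28 and that of MHC class II genes -1.33. 

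Of 241 named ratios past 2-fold, 114 kept their call in every alternative and 22 changed sign in at least 1. Without cells of other lineages' UMIs, with 7 Dormant members left, the log2 ratio of Dormant to Primary was -1.45 for Gbp2, 0.80 for Ccl20, 0.47 for Spred1, 0.23 for Csn3, 0.19 for Ankrd37, -0.11 for Bst2, 0.39 for Etv4 and 1.70 for Lalba. That of Recurrent to Dormant was -0.16 for Lcn2, -0.63 for S100a8, -0.24 for Csn1s1, 0.31 for Cxcl9 and -0.56 for Ankrd37. It was 0.38 for Plk2, -0.62 for Lalba, 0.08254 for Psmb9 and -1.32 for Ifit3. S100a8 is itself among the markers this cut uses, so its level there was limited by the selection and nothing is drawn from it. After thinning each cell, Dormant to Primary was 0.20 for Notch2, 0.41 for Ankrd37, 0.49 for Top2a and 0.16 for Etv4, and Recurrent to Dormant 0.02744 for Cxcl9 and -0.46 for Ankrd37. With the rule on thinned cells, Recurrent to Dormant was 1.30 for Cenpf and 0.98 for Ccnb1. Without the Upk3a cells it was 0.47 for Cited1.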

Other observations

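A second deposited table holds 2 libraries from mice of 16 weeks given antibodies, labelled IgG and Jag1. The rule found 1 member among 2729 kept cells in Jag1 (0.03664%, exact interval 0.0009277 to 0.2040%) and 0 of 2122 in IgG, which allows up to 0.1414% at 3 counts. Any eGFP UMI was held by 16 cells in Jag1 and 9 in IgG, and eGFP-positive basal cells numbered 6 and 1. Luminal levels were not compared there for want of members.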
